A study of Mus musculus with 15 samples.

Results

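The chemokine ligands of cultured mouse embryonic fibroblasts (MEFs) are described here in 5 conditions of a reprogramming experiment with synthetic MyoD-mRNA. The members are the protein-coding gene records of GRCm38 whose symbol is Ccl, Cxcl, Cx3cl or Xcl followed by a number, which gave 44 of the 35675 genes measured, under 39 symbols. Bulk poly-A RNA-seq was made from 15 cultures, 3 MEF lines in each of 5 conditions. All cultures carried the transgene Tg:Pax7-nGFP on a mixed C57BL6 and DBA2 background, and each line came from 1 embryo, so that the lines pair the libraries across conditions. MyoD + F/R/C + CP cultures received MyoD-mRNA in 4 transfections together with forskolin, a cyclic AMP agonist, RepSox, a TGF-beta receptor inhibitor, CHIR99210, a GSK3 inhibitor, and CP690550 (CP), a JAK inhibitor. MyoD + F/R/C + SP cultures had SP600125 (SP), a JNK inhibitor, in place of CP. MyoD + F/R/C cultures had neither kinase inhibitor, +MyoD cultures had the mRNA without small molecules, and the MEFs were not transfected. The medium (iMPC medium) was shared by all conditions, and the transfected cultures also had B18R, a decoy receptor for type I interferon, which the MEFs did not. Libraries were collected at day 10, although the sources disagree on whether the untransfected MEFs were taken at the start or at day 10. The cultures were not sorted before sequencing.

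Chemokines are small secreted proteins that direct the migration of leukocytes and other cells by binding to G protein-coupled receptors, and a gradient of them can be held on the heparan sulfate of the cell surface and matrix. They are named by the spacing of the first cysteines of the mature protein. In CC ligands (Ccl) these cysteines are adjacent, in CXC ligands (Cxcl) another residue separates them, and CX3C is the class of Cx3cl1, whose chemokine domain sits on a membrane-anchored stalk. Fibroblasts are a known source of chemokines in injured tissue, and in regenerating muscle ligands such as Ccl2 and Cxcl12 are known for recruiting monocytes and for guiding progenitor cells.

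The coding bases around these cysteines are shown for members described further on, to show what sorts the family into its classes. They were read 5′ to 3′ from GENCODE M21 transcripts of GRCm38, all on the plus strand, and the capitals mark the codons of the paired cysteines.
Ccl8, chr11:82116047-82116070: ccagtcaccTGCTGCtttcatgta
Ccl12, chr11:82102625-82102648: ccagtcacgTGCTGTtataatgtt
Cxcl1, chr5:90891487-90891513: gagctgcgcTGTcagTGCctgcagacc
Cxcl13, chr5:95958655-95958681: aacttaaaaTGTaggTGTtctggagtg
Cxcl12, chr6:117171499-117171525: agctaccgaTGCcccTGCcggttcttc
Cx3cl1, chr8:94778042-94778074: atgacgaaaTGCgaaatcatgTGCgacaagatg
The cysteine codons are adjacent in Ccl8 and Ccl12, 1 codon apart in the CXC ligands and 3 codons apart in Cx3cl1.

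Libraries held 29393872 to 41885769 estimated counts. Of the 44 records, 23 passed the filter on low counts and were tested among 19331 genes, 10 of them with all libraries over the filter level in every condition, and 8 were at 0 in all 15 libraries. A gene was called when edgeR's quasi-likelihood test gave a Benjamini-Hochberg adjusted p of at most 0.05 over all genes tested and a log2 fold change over 0.5 in size. The sum of 8 fibroblast markers (Col1a1, Dcn, Pdgfra and others) was 19950 to 22810 CPM (counts scaled to normalised library size) with CP, 13970 to 17950 with SP, 14250 to 23120 in MyoD + F/R/C and 12590 to 43400 in +MyoD, against 3184 to 4271 in MEFs. The 8 muscle markers summed to 5381 to 9861 CPM in the F/R/C conditions and 1890 to 2247 in +MyoD, against 67.5 to 91.7 in MEFs. In bulk RNA a larger share of a cell type cannot be told apart from more RNA per cell, and this holds for every level given here. The part of the marker differences in the levels of the ligands was not tested. The macrophage and monocyte markers (13 genes, Adgre1, Csf1r and C1qa among them) summed to 14.4 to 36.8 CPM in the F/R/C conditions and 17.2 to 34.6 in +MyoD, against 27.6 to 39.2 in MEFs. Neutrophil markers summed to at most 2.21 CPM in any library, with 3 or 4 of 7 at 0 in each condition. Of the 12 macrophage and monocyte markers tested, 3 (Csf1r, Lyz2 and C1qa) were called lower and 1 (Mrc1) higher in MyoD + F/R/C than in MEFs, against 21.6% of all genes lower and 26.6% higher. Ptprc (CD45), of leukocytes in general, averaged 0.09 CPM in MyoD + F/R/C against 0.78 in MEFs and was not called (edgeR adjusted p = 0.0671), while Cd68 averaged 4.88 against 5.20 CPM and Cd14 3.65 against 3.16, with overlapping groups. Of 3 tested T and NK cell markers, Cd3g was called higher, with 2.22 against 0.04 CPM.

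Summed over the members, chemokine ligand RNA was more abundant in every transfected culture than in any MEF culture, and Cxcl12 was the leading ligand in all MEF and +MyoD cultures but in only 1 of the 9 F/R/C cultures. The sum was 830, 839 and 813 TPM (abundance per transcript length and depth, which allows genes to be compared) with CP, 1337, 1153 and 1297 with SP and 1064, 1126 and 835 in MyoD + F/R/C. It was 633, 1140 and 1124 in +MyoD, against 277, 237 and 229 in MEFs (lines 1, 2 and 3 in this order, as in all lists of 3 values). The +MyoD cultures spread the most, with line 1 below lines 2 and 3. CC ligands summed to 557 ± 25.1 TPM with CP, 892 ± 109 with SP, 558 ± 145 in MyoD + F/R/C and 316 ± 82.9 in +MyoD, against 93.6 ± 23.2 in MEFs (mean ± SD, n = 3 each). CXC ligands summed to 225 ± 13.8 TPM with CP, 327 ± 13.4 with SP, 402 ± 101 in MyoD + F/R/C and 585 ± 268 in +MyoD, against 137 ± 8.83 in MEFs. All SP cultures had a higher CC sum than any other culture. The mean CXC sum was highest in +MyoD, but there line 1, with 295 TPM, was below all MyoD + F/R/C and all SP cultures.

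**Figure D1:**
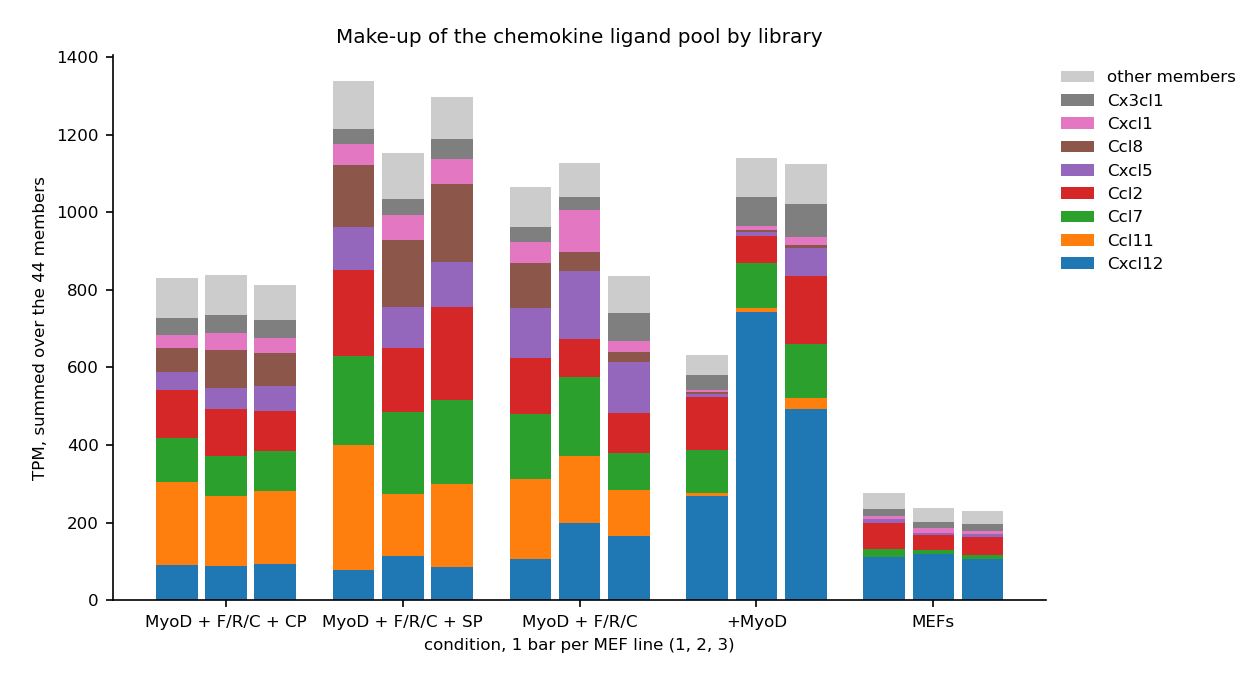
TPM summed over the 44 chemokine ligands (y axis), 1 bar per library, grouped by condition along the x axis and split by ligand. Cxcl12 held 42.3 to 65.1% of the sum in +MyoD and 40.3 to 49.98% in MEFs, while in the F/R/C conditions Ccl11, Ccl7, Ccl2 and Cxcl5 stood beside it.

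By mean TPM, the order in MEFs was Cxcl12 at 112.5 ± 5.49, Ccl2 at 51.1 ± 13.8, Cx3cl1 at 17.2 ± 1.99 and Ccl7 at 13.4 ± 5.71 (SD, n = 3). Cx3cl1 and Ccl7 did not differ beyond their spread in that order, and Ccl2 stood apart from both neighbours. In +MyoD Cxcl12 led with 501 ± 237 TPM, followed by Ccl2 with 127 ± 53.8 and Ccl7 with 122 ± 15.3, and the last pair did not differ beyond its spread. In MyoD + F/R/C, Ccl11 with 165 ± 43.9, Cxcl12 with 157 ± 46.1, Ccl7 with 156 ± 56.3 and Cxcl5 with 145 ± 25.0 TPM lay within each other's spread, and Ccl2 followed with 115 ± 23.4. With SP the order was Ccl11, Ccl7, Ccl2 and Ccl8 at 232 ± 82.5, 219.5 ± 9.03, 209 ± 38.3 and 178 ± 21.2 TPM, and these neighbours also lay within their spread. With CP, Ccl11 led with 194 ± 17.8 TPM and stood above Ccl2 with 115 ± 12.1, Ccl7 with 106.5 ± 5.66 and Cxcl12 with 91.0 ± 3.32.

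**Figure D2:**
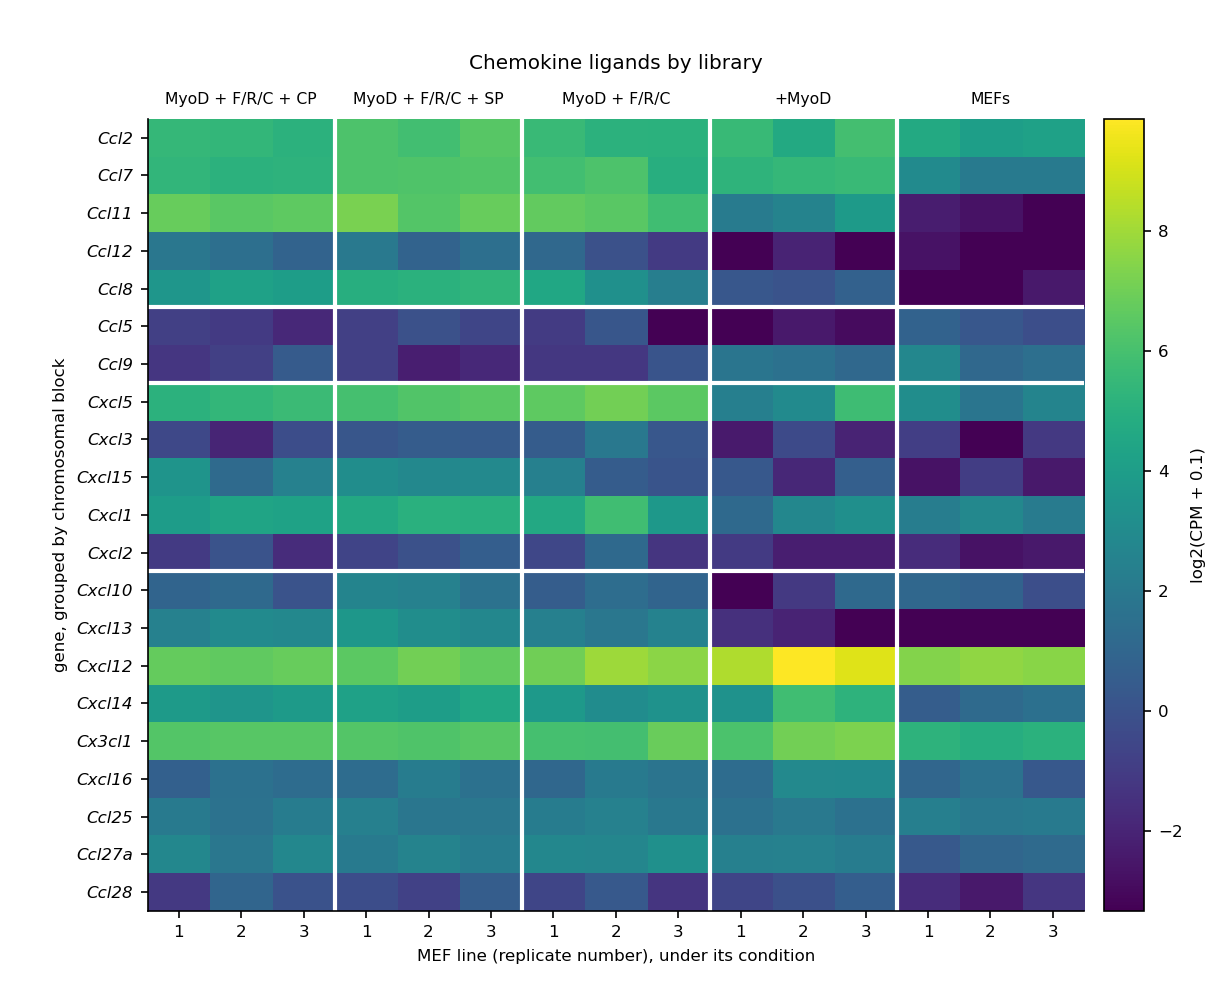
Level of the 21 chemokine ligands described in full, as log2(CPM + 0.1) on the color scale, with a row per gene (grouped by chromosomal block) and a column per library (3 MEF lines under each condition). The first rows, Ccl2 to Ccl8, and the chromosome 5 rows Cxcl5, Cxcl15 and Cxcl1 are brighter in the 9 F/R/C libraries than in MEFs. The rows of Cxcl3 and Cxcl2 are so in MyoD + F/R/C and with SP. With CP, Cxcl3 in line 2 (0.158 CPM) is below line 1 of MEFs (0.445 CPM). Cxcl2 in line 3 with CP (0.2218 CPM) is not above line 1 of MEFs (0.2224 CPM). Cxcl12 is brightest in +MyoD.

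Comparison of +MyoD with MEFs addressed the transfected cultures without small molecules. These conditions also differed in the transfection itself, in B18R and possibly in the day of collection, which cannot be told apart from MyoD-mRNA. The same holds for MyoD + F/R/C against MEFs. Of the 23 members tested, 12 rose (22.8% of all genes tested did) and 1, Ccl5, fell (18.0% of all genes did). The libraries of 8 members did not overlap with +MyoD higher (26.6% of all genes) and those of 1 with +MyoD lower (24.7%). The median log2 fold change was 1.51 over the members tested and 0.12 over all genes tested. Comparison of MyoD + F/R/C with +MyoD isolated the small molecules, and 6 members rose (10.9% of all genes) while 3 fell (8.39%), with a median of 0.59 against 0.03 over all genes. Here 8 members did not overlap with MyoD + F/R/C higher (18.1% of all genes) and 3 with it lower (15.4%). Between MyoD + F/R/C and MEFs, 14 members rose (26.6% of all genes) and 1 fell (21.6%), with a median of 2.10 against 0.19. In this comparison the libraries of 14 members did not overlap with the higher group in MyoD + F/R/C (34.3% of all genes), and those of 1 did not overlap with the lower (29.5%). These 3 comparisons share libraries and are not independent of each other, and members that passed the filter only through a condition in which they are high had to differ, so that these counts describe the members and are not a test of the family.

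**Figure D3:**
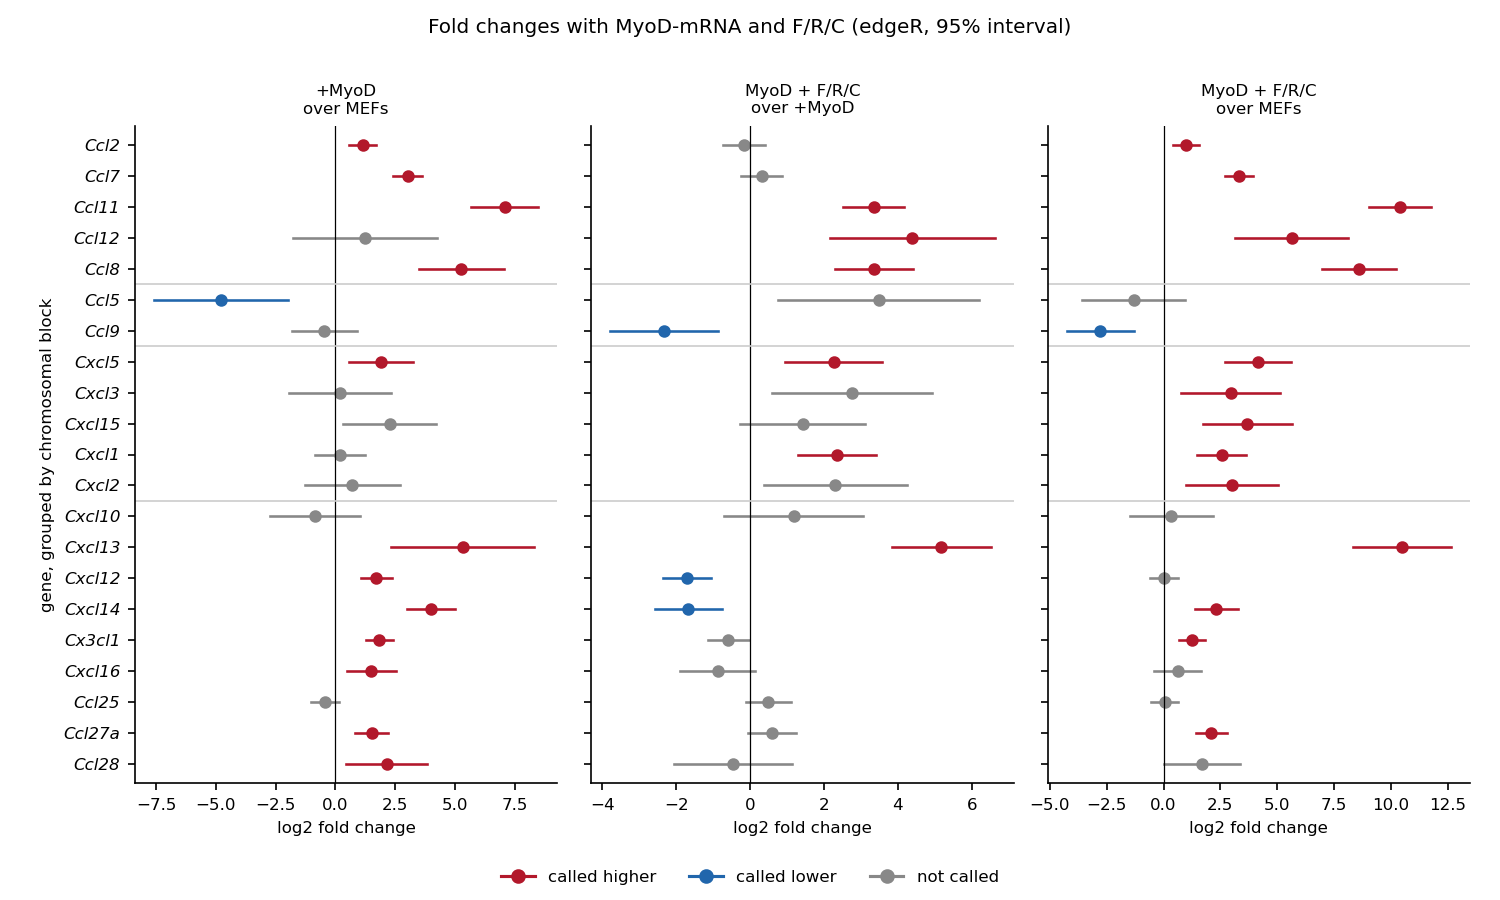
Log2 fold change (x axes) of the 21 chemokine ligands in full, by edgeR, with 95% intervals, for +MyoD over MEFs, MyoD + F/R/C over +MyoD and MyoD + F/R/C over MEFs. All 5 tested ligands of the first block on chromosome 11 (top rows) were called higher in MyoD + F/R/C than in MEFs. So were all 5 of the chromosome 5 block, and 26.6% of all genes tested. Cxcl12 was called higher in +MyoD and lower again with F/R/C.

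The monocyte and eosinophil CC ligands Ccl2, Ccl7, Ccl11, Ccl12 and Ccl8 lie next to each other on chromosome 11 (Ccl2 at chr11:82035571-82037453, Ccl7 at chr11:82045712-82047525, Ccl11 at chr11:82057823-82062955, Ccl12 at chr11:82101845-82103400 and Ccl8 at chr11:82115185-82116799, GRCm38, plus strand). Of these 5, 4 rose in +MyoD against MEFs (22.8% of all genes tested did). In MyoD + F/R/C, 3 rose against +MyoD (10.9% of all genes) and all 5 rose against MEFs (26.6% of all genes). Ccl1, the sixth gene of the block, had no count in any library. Ccl24, an eosinophil attractant grouped with them by function and located on chromosome 5, had at most 12 counts in a library and was not tested.

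Ccl11 (eotaxin, an eosinophil attractant that acts through CCR3) had the largest range of these. It had 3974, 3574 and 2589 counts in MyoD + F/R/C and 140, 199 and 481 in +MyoD, against 4, 2 and 0 in MEFs. In CPM these were 103, 88.5 and 56.6 in MyoD + F/R/C, 4.38, 5.79 and 14.3 in +MyoD and 0.11, 0.057 and 0 in MEFs, and no library of a condition overlapped with those of the next. Its log2 fold change was 3.34 ± 0.39 (SE, edgeR adjusted p = 3.05e-05) for MyoD + F/R/C over +MyoD and 10.42 ± 0.64 (SE, edgeR adjusted p = 7.09e-09) for MyoD + F/R/C over MEFs. Line 3 was the highest of the +MyoD cultures and the lowest of the MyoD + F/R/C cultures, so that the step between them was smallest in that line.

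Ccl8, another monocyte chemoattractant, had 876, 399 and 226 counts in MyoD + F/R/C and 35, 32 and 55 in +MyoD, against 0, 0 and 3 in MEFs. The conditions did not overlap. With 3 counts in all MEF libraries together, the ratio of normalised counts was 423 for MyoD + F/R/C over MEFs (95% counting interval 145 to 2055) and 42.9 for +MyoD over MEFs (14.3 to 211), and both were called (edgeR adjusted p = 2.74e-07 and 9.52e-05). Between MyoD + F/R/C and +MyoD, the log2 fold change was 3.35 ± 0.50 (SE, edgeR adjusted p = 0.000205).

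Ccl12, which attracts monocytes through CCR2 in mice, had 80, 35 and 17 counts in MyoD + F/R/C and 0, 5 and 0 in +MyoD, against 2, 0 and 0 in MEFs. It was thus near the limit of detection without F/R/C and present in each F/R/C library. The ratio over MEFs was 55.8 in MyoD + F/R/C, with a counting interval of 15.2 to 466 (edgeR adjusted p = 0.000794), and the log2 fold change over +MyoD was 4.39 ± 1.05 (SE, edgeR adjusted p = 0.00702), a call lost when only the 6 libraries compared were fitted (adjusted p = 0.0760).

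Ccl7, a monocyte chemoattractant that binds CCR2 and CCR3, had 59.3, 72.6 and 31.2 CPM in MyoD + F/R/C and 37.97, 44.1 and 49.4 in +MyoD, against 7.84, 4.13 and 4.18 in MEFs. It was higher in every transfected library than in any MEF library, and MyoD + F/R/C and +MyoD overlapped. Ccl7 had a log2 fold change of 3.02 ± 0.29 (SE, edgeR adjusted p = 7.88e-07) for +MyoD over MEFs. For MyoD + F/R/C over +MyoD it was 0.31 ± 0.26 (SE, edgeR adjusted p = 0.461), which was not called, with a 95% interval of -0.25 to 0.87. Ccl2, the main monocyte attractant of the family, had 49.3, 35.02 and 34.3 CPM in MyoD + F/R/C and 47.4, 25.3 and 60.7 in +MyoD, against 25.4, 16.5 and 18.6 in MEFs. Line 2 of +MyoD lay within the range of the MEFs. Ccl2 rose by a log2 fold change of 1.14 ± 0.27 (SE, edgeR adjusted p = 0.00259) in +MyoD over MEFs and by 0.97 ± 0.27 (SE, edgeR adjusted p = 0.00637) in MyoD + F/R/C over MEFs, and the 95% interval of its difference between MyoD + F/R/C and +MyoD was -0.73 to 0.39 on the log2 scale. Ccl2 overlaps Gm17268 on the opposite strand, and the strand setting of the quantification is not stated.

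**Figure D4:**
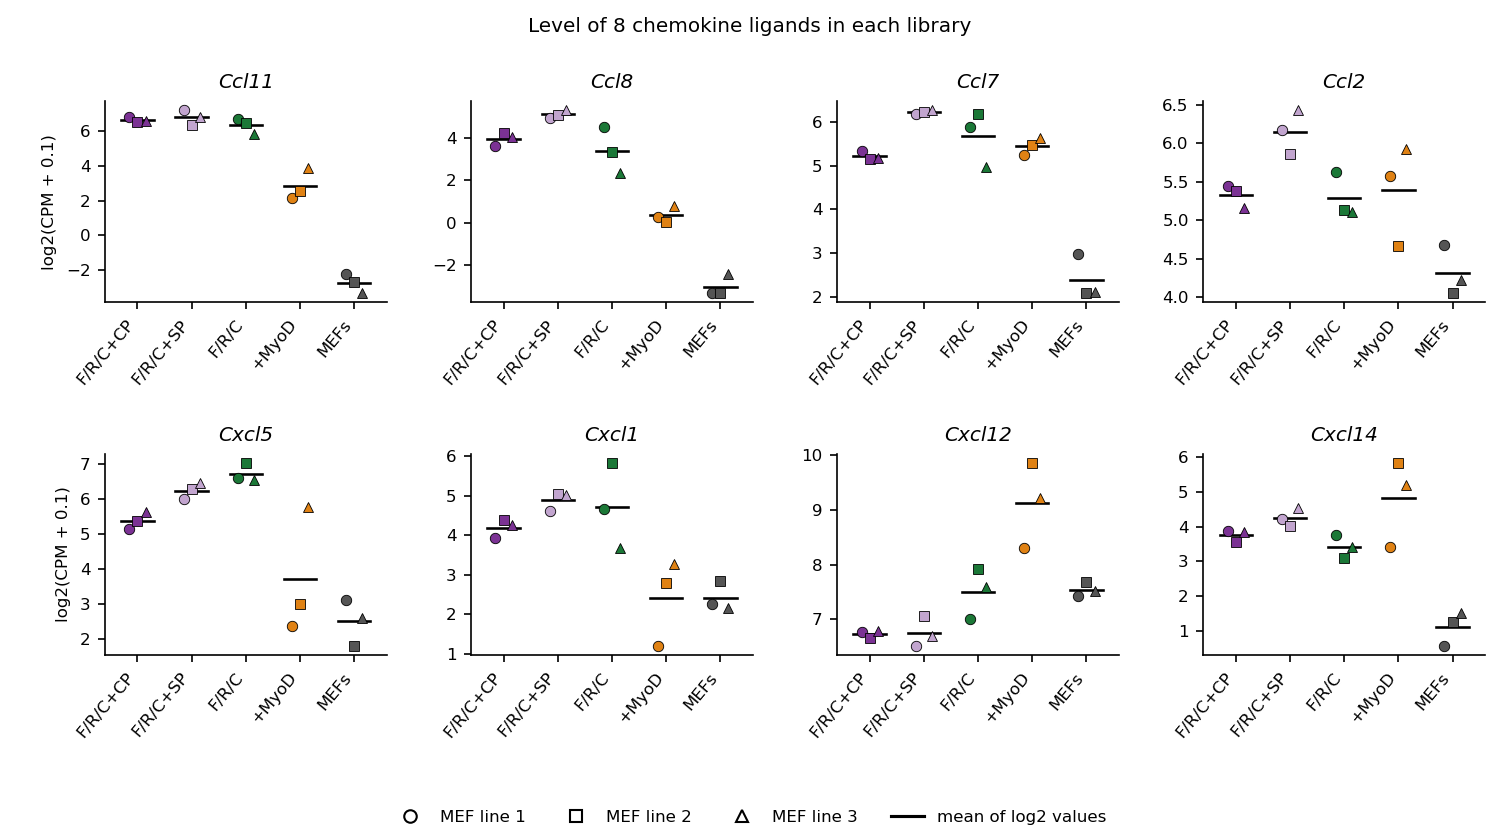
Log2(CPM + 0.1) (y axes) of 8 chemokine ligands in each library, by condition (x axes), with a symbol per MEF line and a bar for the mean of the 3 log2 values. Ccl11 and Ccl8 step up from MEFs to +MyoD and again to MyoD + F/R/C. Ccl7 steps up from MEFs to +MyoD, and Cxcl1 from +MyoD to MyoD + F/R/C. Cxcl12 and Cxcl14 are highest in lines 2 and 3 of +MyoD.

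The second CC block of chromosome 11, Ccl5, Ccl9, Ccl6, Ccl3 and Ccl4 (chr11:83525778-83664683), starts 1220 kb beyond Ccl1. None of its 3 tested ligands was called higher in any of the 6 comparisons made. Ccl5, which attracts T cells and monocytes, had 15, 42 and 0 counts in MyoD + F/R/C and 0, 3 and 1 in +MyoD, against 60, 38 and 27 in MEFs. It was nearly absent from all +MyoD libraries and fell by a log2 fold change of -4.78 ± 1.31 (SE, edgeR adjusted p = 0.00734) there, while line 3 of MyoD + F/R/C was at 0 and lines 1 and 2 were not. For MyoD + F/R/C over +MyoD it was 3.48 ± 1.28 (SE, edgeR adjusted p = 0.0648) and was not called, although it was without line 3 of MyoD + F/R/C (edgeR adjusted p = 0.00911) and by DESeq2 (adjusted p = 0.0186). Ccl9, a CCR1 ligand of mice, had 13, 14 and 45 counts in MyoD + F/R/C and 110, 100 and 70 in +MyoD, against 243, 75 and 93 in MEFs. Its highest MyoD + F/R/C library was below the lowest of both other conditions, with a log2 fold change of -2.32 ± 0.68 (SE, edgeR adjusted p = 0.023) over +MyoD and -2.78 ± 0.69 (SE, edgeR adjusted p = 0.00316) over MEFs. The call over +MyoD was lost without line 1 of +MyoD (edgeR adjusted p = 0.0539), line 1 of MyoD + F/R/C (0.103) or line 2 of MyoD + F/R/C (0.0895). Ccl6, also a CCR1 ligand, had at most 41 counts in a library and was not called in any of the 6 comparisons, and Ccl3 and Ccl4, macrophage inflammatory proteins, had at most 12 counts.

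The CXC ligands with an ELR motif, which attract neutrophils through CXCR2, are also neighbours. Cxcl5 (chr5:90759360-90761624), Cxcl3 (chr5:90786103-90789600), Cxcl15 (chr5:90794534-90803067), Cxcl1 (chr5:90891241-90893115) and Cxcl2 (chr5:90903871-90905938) span 147 kb of GRCm38 on the plus strand. Only Cxcl5 rose in +MyoD against MEFs (22.8% of all genes tested did). Cxcl5 and Cxcl1 rose in MyoD + F/R/C against +MyoD (10.9% of all genes), and all 5 rose against MEFs (26.6% of all genes). Cxcl10 and Cxcl9, which lie 1415 kb further on the same chromosome, were not called (Cxcl10) or not tested (Cxcl9), as described further on.

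Cxcl5 was the most abundant of them and the most uneven between +MyoD cultures. It had 96.9, 132 and 93.7 CPM in MyoD + F/R/C and 5.08, 7.89 and 54.4 in +MyoD, against 8.59, 3.398 and 5.97 in MEFs. Line 3 of +MyoD stood apart, and lines 1 and 2 lay within the range of the MEFs. Cxcl5 rose in +MyoD over MEFs by a log2 fold change of 1.91 ± 0.63 (SE, edgeR adjusted p = 0.0221), but it was 0.11 (adjusted p = 0.826) without line 3. It was also not called without line 2 or line 3 of the MEFs (edgeR adjusted p = 0.0919 and 0.0612), with the MEF line as a replicate block (adjusted p = 0.0551) or with only the 6 libraries compared (adjusted p = 0.110). In MyoD + F/R/C it rose by 2.26 ± 0.62 (SE, edgeR adjusted p = 0.0162) over +MyoD, where it was lost without line 2 of +MyoD (adjusted p = 0.0536) or with only the 6 libraries compared (adjusted p = 0.115), and 4.17 ± 0.68 (SE, edgeR adjusted p = 0.0001) over MEFs, where the groups were far apart.

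Cxcl1 had 25.1, 56.9 and 12.8 CPM in MyoD + F/R/C and 2.19, 6.78 and 9.49 in +MyoD, against 4.67, 7.08 and 4.33 in MEFs. The lowest MyoD + F/R/C culture, line 3, was above every culture without F/R/C, while +MyoD and MEFs overlapped. Its log2 fold change was 2.36 ± 0.50 (SE, edgeR adjusted p = 0.00315) over +MyoD, where the 6 libraries alone gave an adjusted p of 0.0537, and 2.56 ± 0.50 (SE, edgeR adjusted p = 0.000508) over MEFs. Cxcl15, known as lungkine in mice, had 200, 53 and 45 counts in MyoD + F/R/C and 36, 6 and 50 in +MyoD, against 2, 15 and 3 in MEFs, with a log2 fold change of 3.69 ± 0.92 (SE, edgeR adjusted p = 0.00318) for MyoD + F/R/C over MEFs. For +MyoD over MEFs it was 2.27 ± 0.91 (SE, edgeR adjusted p = 0.0556), not called, although DESeq2 called it (adjusted p = 0.0140), as did edgeR without the filter (adjusted p = 0.0391), without line 2 of MEFs (3.63, adjusted p = 0.0206) and without line 2 of +MyoD (2.76, adjusted p = 0.0187). Over the libraries left out in turn, this log2 fold change ran from 1.75 to 3.63.

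Cxcl2 and Cxcl3 were near the filter level. Cxcl2 had 23, 87 and 14 counts in MyoD + F/R/C and 12, 4 and 4 in +MyoD, against 8, 2 and 3 in MEFs, and Cxcl3 had 51, 155 and 51 in MyoD + F/R/C and 3, 23 and 5 in +MyoD, against 16, 0 and 12 in MEFs. Line 2 of MyoD + F/R/C was the highest for both, as it was for Cxcl1 and Cxcl5. Against MEFs the log2 fold change in MyoD + F/R/C was 3.02 ± 0.95 (SE, edgeR adjusted p = 0.0139) for Cxcl2 and 2.96 ± 1.02 (SE, edgeR adjusted p = 0.0235) for Cxcl3. Without line 2 of MyoD + F/R/C the edgeR adjusted p was 0.132 for Cxcl2 and 0.122 for Cxcl3. Both calls were also lost without line 2 of the MEFs (edgeR adjusted p = 0.0598 for Cxcl2 and 0.0512 for Cxcl3) or line 3 of the MEFs (0.0542 and 0.0509), and that of Cxcl3 with the replicate block (0.0501). Over +MyoD neither was called by edgeR (adjusted p = 0.0869 for Cxcl2 and 0.0644 for Cxcl3), while DESeq2 called both (0.0426 and 0.0141).

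Promoter windows from RefSeq (GRCm38.p6, 250 bases before to 50 after each annotated start) were found for 27 of the 39 symbols and scanned on both strands. Ccl2, Ccl7, Ccl11 and Cxcl5 are named only. The consensus of NF-kB, the inflammatory transcription factor, was present in 8.46% of the 32851 windows scanned. The 27 symbols had 33 windows, and 8 of these windows held it. They belonged to 8 symbols, Ccl1, Ccl9, Ccl20, Ccl27a, Cxcl1, Cxcl2, Cxcl3 and Cxcl10. Of these, Ccl1 had no counts, Ccl9 fell with F/R/C and Cxcl10 was not called. The windows of the neighbours Cxcl1, Cxcl2 and Cxcl3, which rose together in MyoD + F/R/C against MEFs, are shown, with the match in capitals.
Cxcl1, chr5:90891150-90891208, plus strand: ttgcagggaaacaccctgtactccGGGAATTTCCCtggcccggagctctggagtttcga
Cxcl2, chr5:90903778-90903836, plus strand: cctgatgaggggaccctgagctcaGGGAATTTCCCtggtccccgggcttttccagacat
Cxcl3, chr5:90786004-90786062, plus strand: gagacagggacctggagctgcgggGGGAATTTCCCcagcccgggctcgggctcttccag
In each of these windows 2 overlapping matches form the same 11 bases, starting 71, 97 and 73 bases before the annotated start of Cxcl1, Cxcl2 and Cxcl3, and the bases around them differ. The window of Cxcl15 held no match to the NF-kB consensus.

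The E-box CAGCTG, a form bound by MyoD, was present in 16.3% of all windows and in 6 of the members' 33, of 6 symbols. It was present in those of Ccl8, Ccl12 and Cxcl13, which rose with F/R/C, and these are shown for that reason, with the match in capitals.
Ccl8, chr11:82115024-82115077, plus strand: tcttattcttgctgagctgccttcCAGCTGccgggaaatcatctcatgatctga
Ccl12, chr11:82101611-82101664, plus strand: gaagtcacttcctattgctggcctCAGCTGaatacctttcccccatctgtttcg
Cxcl13, chr5:95956824-95956877, plus strand: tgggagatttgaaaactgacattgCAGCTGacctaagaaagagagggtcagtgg
The E-box was also present in the windows of Ccl9, which fell with F/R/C, of Ccl28 and of Cxcl9. The window of Cxcl1, which also rose with F/R/C, held none. The cyclic AMP response element TGACGTCA was in 1.79% of all windows and in none of the members' windows. The AP-1 site TGANTCA was in 7.81% of all windows and in 7 of the members' 33, of 6 symbols. The GAS element TTCNNNGAA was in 8.30% of all windows and in 2 of the members', of Ccl17 and Cxcl14. The interferon-stimulated response element (ISRE) was in 3.44% of all and in 3 of the members', of Ccl19, Cxcl10 and Cxcl14. The C/EBP site TTNNGCAA was in 10.8% of all and in 6 of the members', of 4 symbols. A match describes letters in a window and says nothing of binding, which was not measured.

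Of 8 ligands known for steady tissue expression 6 were tested. In +MyoD against MEFs 5 rose (22.8% of all genes did), in MyoD + F/R/C against +MyoD 1 rose and 2 fell (10.9% and 8.39% of all genes), and in MyoD + F/R/C against MEFs 3 rose (26.6% of all genes). Cxcl12 (chr6:117168535-117181367, plus strand), the ligand of CXCR4 and ACKR3, had 129, 241 and 193 CPM in MyoD + F/R/C and 315, 930.1 and 593 in +MyoD, against 172, 204 and 182 in MEFs. Every +MyoD culture lay above every other culture, and MyoD + F/R/C overlapped with MEFs. Cxcl12 rose by a log2 fold change of 1.72 ± 0.30 (SE, edgeR adjusted p = 0.000237) for +MyoD over MEFs and fell again, with -1.71 ± 0.30 (SE, edgeR adjusted p = 0.000834) for MyoD + F/R/C over +MyoD, and that of MyoD + F/R/C over MEFs was not called, with a 95% interval of -0.61 to 0.64.

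The make-up of Cxcl12 by transcript is given next. The transcripts Cxcl12-202, Cxcl12-203 and Cxcl12-201 share their first 267 coding bases and differ in how the coding region ends. Their ends are shown, with 18 shared bases in lower case and the bases of each transcript's own end in capitals (the first 60 of 93 for Cxcl12-201).
Cxcl12-202, 89 codons: gagaaagctttaaacaagTAA
Cxcl12-203, 93 codons: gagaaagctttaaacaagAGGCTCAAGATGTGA
Cxcl12-201, 119 codons: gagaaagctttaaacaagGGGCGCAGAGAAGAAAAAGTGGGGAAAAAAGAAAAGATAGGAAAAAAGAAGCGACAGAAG
They correspond to the alpha, beta and gamma forms of the protein, of which gamma has a long basic tail known to bind heparan sulfate. Cxcl12-202 made up 75.01, 76.7 and 74.7% of the TPM of the gene in MyoD + F/R/C and 80.6, 80.9 and 78.9% in +MyoD, against 60.7, 53.9 and 55.2% in MEFs, and 75.95 to 83.98% with SP or CP. Cxcl12-201 made up 1.41, 2.24 and 2.72% in MyoD + F/R/C and 3.94, 1.58 and 2.74% in +MyoD, against 7.80, 8.57 and 9.14% in MEFs. The ranges of MEFs and of the transfected conditions did not overlap for either transcript. The shares rest on how kallisto divides reads of the shared bases, and were not tested. As shares of estimated counts, Cxcl12-202 had 61.8% in MyoD + F/R/C and 67.1% in +MyoD, against 38.6% in MEFs.

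Cxcl14, which is expressed by fibroblasts and epithelia and whose receptor is not settled, had 13.5, 8.47 and 10.5 CPM in MyoD + F/R/C and 10.5, 56.9 and 36.2 in +MyoD, against 1.39, 2.29 and 2.78 in MEFs. Line 1 of +MyoD lay in the range of MyoD + F/R/C, while lines 2 and 3 stood above it. Cxcl14 rose by a log2 fold change of 4.00 ± 0.47 (SE, edgeR adjusted p = 6.29e-06) in +MyoD over MEFs and remained higher in MyoD + F/R/C, at 2.33 ± 0.45 (SE, edgeR adjusted p = 0.000432). It fell in MyoD + F/R/C against +MyoD, with -1.67 ± 0.42 (SE, edgeR adjusted p = 0.0102), a call that was lost without line 2 of +MyoD (log2 fold change of -1.11, edgeR adjusted p = 0.0652) or with only the 6 libraries compared (adjusted p = 0.0849).

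Cxcl13, which attracts B cells through CXCR5, had 206, 148 and 254 counts in MyoD + F/R/C and 8, 5 and 0 in +MyoD, against 0, 0 and 0 in MEFs. Every MyoD + F/R/C culture held it, and line 3 of +MyoD did not. Against the limit that 3 counts over the MEF libraries allow, it was at least 171-fold higher in MyoD + F/R/C (edgeR adjusted p = 1.41e-06) and at least 4.57-fold higher in +MyoD (edgeR adjusted p = 0.00666), and the log2 fold change of MyoD + F/R/C over +MyoD was 5.18 ± 0.62 (SE, edgeR adjusted p = 7.53e-05). It lies on chromosome 5 (chr5:95956951-95961068), 3608 kb beyond Cxcl10.

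Ccl27a and Ccl28, ligands of CCR10 known from skin and mucosa, were low. Ccl27a had 6.82, 6.59 and 9.603 CPM in MyoD + F/R/C and 5.26, 5.53 and 4.54 in +MyoD, against 1.196, 1.93 and 2.25 in MEFs, and both conditions stood above the MEFs without overlap. Its log2 fold change was 1.51 ± 0.32 (SE, edgeR adjusted p = 0.0011) for +MyoD over MEFs and 2.10 ± 0.32 (SE, edgeR adjusted p = 5.56e-05) for MyoD + F/R/C over MEFs. Ccl27a has near-identical copies, among them a Ccl27 record on an unplaced scaffold with 0 to 48 counts, and it overlaps Il11ra1 on the opposite strand, so that its level is uncertain. Ccl28 had 22, 47 and 14 counts in MyoD + F/R/C and 18, 28 and 48 in +MyoD, against 8, 3 and 11 in MEFs, with a log2 fold change of 2.14 ± 0.80 (SE, edgeR adjusted p = 0.0391) for +MyoD over MEFs. That call was lost without line 1 or line 2 of the MEFs (edgeR adjusted p = 0.0874 and 0.141), line 2 or line 3 of +MyoD (0.0554 and 0.136), with the replicate block (0.0549), without the filter (0.0705) or on length-scaled counts (0.0715). Ccl25, a ligand of CCR9 known from thymus and gut, was called in none of the 6 comparisons, with 4.62, 5.399 and 3.72 CPM in MyoD + F/R/C and 2.94, 3.87 and 2.91 in +MyoD, against 5.03, 3.85 and 4.27 in MEFs. Its gene overlaps Elavl1 on the opposite strand.

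The membrane-anchored ligands were both higher in +MyoD. Cx3cl1 (fractalkine, the ligand of CX3CR1, chr8:94772009-94782427) had 63.4, 59.7 and 116 CPM in MyoD + F/R/C and 70.3, 135 and 153 in +MyoD, against 36.6, 29.96 and 33.8 in MEFs. Both transfected conditions lay above the MEFs and overlapped with each other, and line 3 was the highest in each. Its log2 fold change was 1.84 ± 0.26 (SE, edgeR adjusted p = 4.17e-05) for +MyoD over MEFs and 1.25 ± 0.26 (SE, edgeR adjusted p = 0.000824) for MyoD + F/R/C over MEFs, and -0.58 ± 0.26 (SE, edgeR adjusted p = 0.125), not called, for MyoD + F/R/C over +MyoD. Without line 1 of +MyoD or line 3 of MyoD + F/R/C, the last of these was called lower (log2 fold change of -0.85 and -0.94, edgeR adjusted p = 0.0102 and 0.0140). Cxcl16, the ligand of CXCR6, had 1.996, 4.18 and 3.21 CPM in MyoD + F/R/C and 2.41, 7.36 and 7.54 in +MyoD, against 1.92, 3.06 and 1.14 in MEFs. Line 1 of +MyoD lay among the MEFs. In +MyoD over MEFs it rose by a log2 fold change of 1.50 ± 0.48 (SE, edgeR adjusted p = 0.0195), with an adjusted p of 0.0585 to 0.0876 when line 1 or line 3 of the MEFs or line 2 or line 3 of +MyoD was left out, 0.0580 for the 6 libraries alone and 0.0645 on length-scaled counts. Cxcl16 overlaps Zmynd15 on the opposite strand.

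Of the 3 interferon-inducible ligands, which act on CXCR3, Cxcl10 was tested and was not called in any of the 6 comparisons. It had 53, 100 and 83 counts in MyoD + F/R/C and 0, 12 and 72 in +MyoD, against 73, 58 and 27 in MEFs. The +MyoD cultures ran from 0 in line 1 to the MEF level in line 3. Cxcl10 had a log2 fold change of -0.84 ± 0.88 (SE, edgeR adjusted p = 0.477) for +MyoD over MEFs and 1.18 ± 0.88 (SE, edgeR adjusted p = 0.393) for MyoD + F/R/C over +MyoD, and neither was called. Their 95% intervals were wide, with -0.69 to 3.06 for the comparison with +MyoD and -1.49 to 2.17 for MyoD + F/R/C over MEFs. Without line 3 of +MyoD both were called, with -3.05 (edgeR adjusted p = 0.0120) for +MyoD over MEFs and 3.39 (edgeR adjusted p = 0.0129) for MyoD + F/R/C over +MyoD. Cxcl9 had at most 22 counts in a library and was not tested. Cxcl10 overlaps Art3 on the opposite strand.

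Comparison of SP and of CP with MyoD + F/R/C addressed the kinase inhibitors, and no chemokine ligand was called in either by edgeR, nor by DESeq2. With SP, 4 of 23 members had an unadjusted p under 0.05 (6.62% of all genes tested), and edgeR called 0.0% of all genes in each direction. The libraries of 7 members did not overlap with the SP group higher (7.18% of all genes) and those of 2 with it lower (6.99%). With CP, 3 of 23 had an unadjusted p under 0.05 (7.91% of all genes), and edgeR called 0.0% of all genes higher and 0.0362% lower. Among these 3 was the Ccl27 record on an unplaced scaffold, with 6, 48 and 0 counts with CP and 0 in each MyoD + F/R/C library. None of the members separated with CP higher (7.94% of all genes) and 3 with CP lower (9.08%). The 2 comparisons share the MyoD + F/R/C libraries. Directly between CP and SP, 3 of 23 had an unadjusted p under 0.05 (4.01% of all genes), 0 were called by edgeR (0.197% of all genes were called lower and 0.0% higher), and 8 members separated with CP lower (6.31% of all genes) and 0 with CP higher (5.07%). DESeq2 called 1 of the 23, Ccl7, lower with CP than with SP (0.497% of all genes were, and 0.031% higher), and none with SP (0.243% of all genes higher, 0.0983% lower) or with CP (0.367% higher, 0.641% lower) over MyoD + F/R/C.

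Fits of fewer libraries called a few ligands. With the 6 libraries compared fitted alone, edgeR called none with SP (0.0114% of all genes higher, 0.00568% lower), 1, Cxcl5, lower with CP (0.407% lower, 0.108% higher) and 2, Ccl7 and Ccl8, lower with CP than with SP (0.373% lower, 0.0344% higher). With the 9 F/R/C libraries fitted alone, a fit added after the data were seen, it called none with SP (0.0975% higher, 0.0488% lower), Cxcl5 again with CP (0.601% lower, 0.222% higher) and none between CP and SP (0.352% lower, 0.0325% higher). With the replicate block no ligand was called with CP (0.14% of all genes lower, 0.0517% higher) or between CP and SP (0.186% lower).

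**Figure D5:**
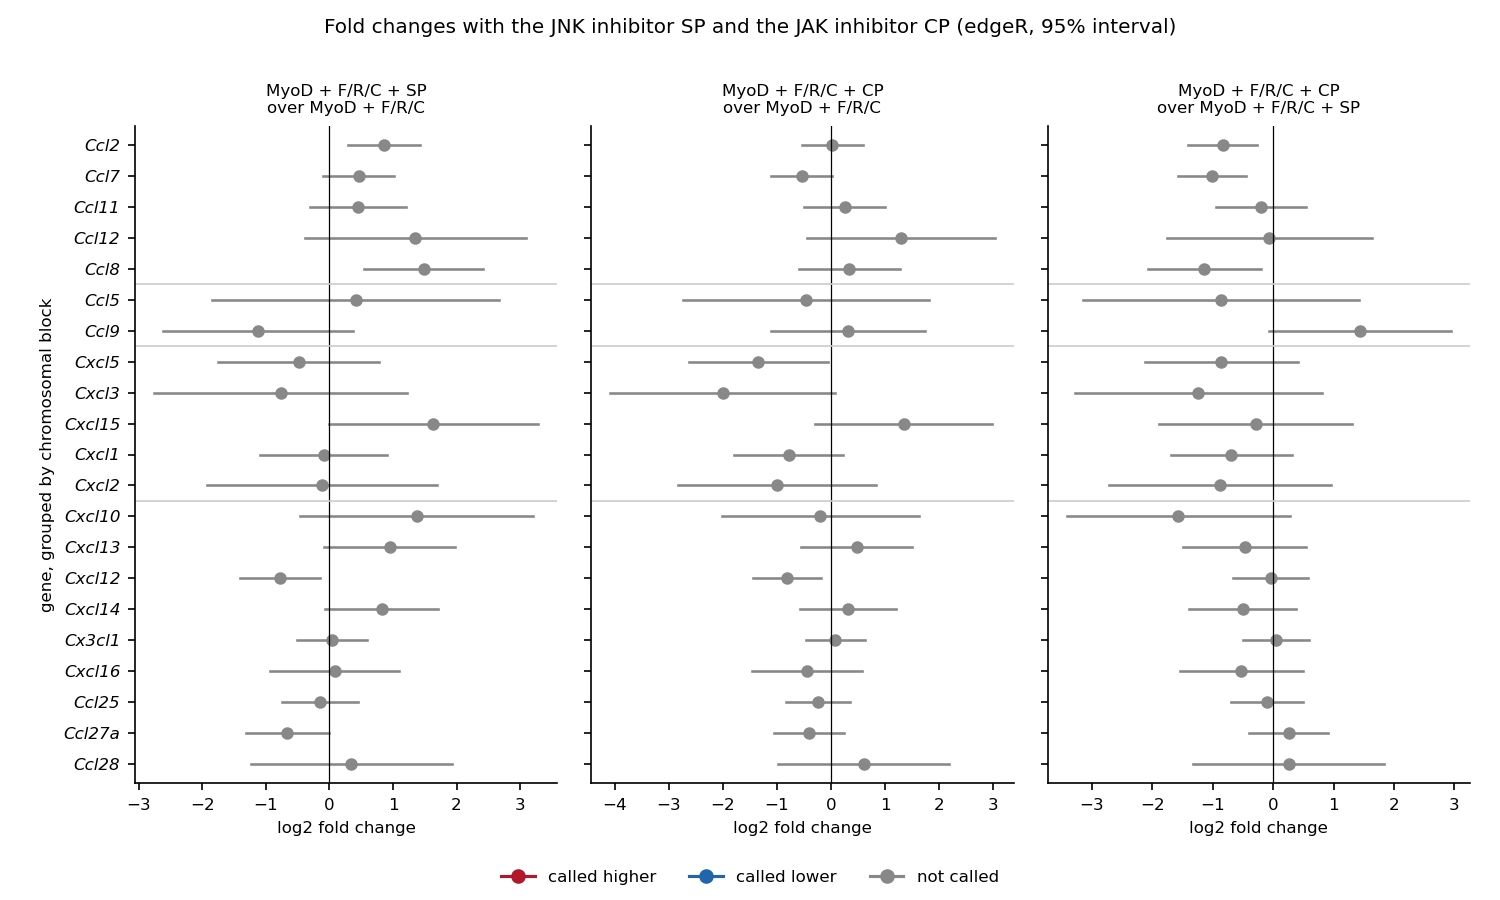
Log2 fold change (x axes) of the 21 chemokine ligands in full, by edgeR, with 95% intervals, for SP over MyoD + F/R/C, CP over MyoD + F/R/C and CP over SP. No point is colored as called. The intervals of Ccl2 and Ccl8 lie above 0 with SP and below 0 for CP over SP, where that of Ccl7 also lies below 0. Those of Cxcl12 lie below 0 with SP and with CP, that of Ccl27a with SP and that of Cxcl5 with CP.

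Ccl8, Ccl2 and Ccl7, the monocyte chemoattractants, were the 3 members with an unadjusted p under 0.05 between CP and SP. Ccl8 had 12.3, 18.9 and 16.3 CPM with CP and 30.7, 34.2 and 39.9 with SP, against 22.7, 9.88 and 4.94 in MyoD + F/R/C. All SP libraries were above all libraries of the other conditions, and the log2 fold change was 1.48 ± 0.44 (SE, edgeR unadjusted p = 0.00436, adjusted p = 0.654) for SP over MyoD + F/R/C and -1.14 ± 0.44 (SE, edgeR unadjusted p = 0.0198, adjusted p = 1) for CP over SP. Ccl2 had 43.4, 41.6 and 35.7 CPM with CP and 71.9, 57.8 and 86.2 with SP, against 49.3, 35.02 and 34.3 in MyoD + F/R/C. The SP libraries stood above those with CP and those of MyoD + F/R/C, but line 2 of SP was below line 3 of +MyoD at 60.7 CPM. The log2 fold change of Ccl2 was 0.86 ± 0.26 (SE, edgeR unadjusted p = 0.00528, adjusted p = 0.654) for SP over MyoD + F/R/C and -0.84 ± 0.26 (SE, edgeR unadjusted p = 0.00641, adjusted p = 0.770) for CP over SP. Ccl7 had 40.3, 35.4 and 36.1 CPM with CP and 73.1, 74.4 and 77.3 with SP, against 59.3, 72.6 and 31.2 in MyoD + F/R/C. CP and SP were each even between lines and did not overlap, with -1.01 ± 0.26 (SE, edgeR unadjusted p = 0.00171, adjusted p = 0.371) for CP over SP. This difference was called when the 6 libraries alone were fitted (edgeR adjusted p = 0.00432) and by DESeq2 (adjusted p = 0.0405), and that of Ccl8 in the 6-library fit alone (edgeR adjusted p = 0.0335). Ccl11 stayed high in all F/R/C conditions, with 110.3, 90.5 and 94.9 CPM with CP and 147, 81.1 and 110.3 with SP, and its 95% interval for CP over SP was -0.94 to 0.55 on the log2 scale. For Ccl12, with 153, 104 and 55 counts with CP and 153, 76 and 90 with SP, that interval was -1.76 to 1.63.

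Among the CXC ligands, Cxcl5 had 35.3, 41.6 and 50.1 CPM with CP and 63.7, 78.2 and 88.4 with SP, against 96.9, 132 and 93.7 in MyoD + F/R/C. All CP libraries lay below all others with F/R/C, and all SP libraries below MyoD + F/R/C. Cxcl5 had a log2 fold change of -1.35 ± 0.60 (SE, edgeR unadjusted p = 0.0409, adjusted p = 0.599) for CP over MyoD + F/R/C, and it was called when the 6 libraries of the comparison or the 9 libraries with F/R/C were fitted alone (edgeR adjusted p = 0.0310 and 0.00951). Cxcl1, with 15.3, 20.9 and 18.9 CPM with CP and 24.3, 32.6 and 32.1 with SP, separated between these without passing the test, with -0.69 ± 0.47 (SE, edgeR unadjusted p = 0.164, adjusted p = 1) for CP over SP. Cxcl12 had 108, 101 and 110.2 CPM with CP and 91.3, 134 and 104 with SP, against 129, 241 and 193 in MyoD + F/R/C. CP did not overlap with MyoD + F/R/C and SP did, with log2 fold changes of -0.82 ± 0.30 (SE, edgeR unadjusted p = 0.0142, adjusted p = 0.453) with CP and -0.78 ± 0.29 (SE, edgeR unadjusted p = 0.019, adjusted p = 0.722) with SP. Cxcl10 had 1.82, 2.16 and 0.95 CPM with CP and 6.18, 5.46 and 3.03 with SP, against 1.37, 2.48 and 1.82 in MyoD + F/R/C, so that the SP libraries were above the others, with -1.57 ± 0.87 (SE, edgeR unadjusted p = 0.0905, adjusted p = 1) for CP over SP and 1.37 ± 0.86 (SE, edgeR unadjusted p = 0.132, adjusted p = 0.784) for SP over MyoD + F/R/C.

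The other members were not called between the F/R/C conditions either. Cxcl13 had 5.52, 7.74 and 7.002 CPM with CP and 12.5, 8.72 and 6.81 with SP, against 5.34, 3.67 and 5.56 in MyoD + F/R/C, and Cxcl14 had 14.6, 11.8 and 14.3 with CP and 18.6, 16.04 and 23.03 with SP, against 13.5, 8.47 and 10.5. For both the SP libraries were above those of MyoD + F/R/C, and neither passed the test (edgeR adjusted p = 0.755 and 0.752). Cxcl15 had 479, 87 and 170 counts with CP and 340, 304 and 243 with SP, against 200, 53 and 45 in MyoD + F/R/C, and line 1 was the highest in each of these conditions. Cx3cl1 had 81.3, 85.5 and 86.2 CPM with CP and 81.7, 76.3 and 87.97 with SP, and its 95% interval for CP over SP was -0.51 to 0.59 on the log2 scale. Ccl27a had 6.89, 3.68 and 6.81 CPM with CP and 4.198, 5.82 and 4.48 with SP, against 6.82, 6.59 and 9.603 in MyoD + F/R/C, with -0.67 ± 0.31 (SE, edgeR unadjusted p = 0.0465, adjusted p = 0.747) for SP over MyoD + F/R/C.

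Factors downstream of interferon and cytokine receptors are given beside the ligands, since CP blocks JAK kinases. Of 10 such factors tested, 9 rose in +MyoD against MEFs (22.8% of all genes). In MyoD + F/R/C against MEFs 9 rose and 1 fell (26.6% and 21.6% of all genes). With CP against SP, 4 were called lower (0.197% of all genes), Irf7, Irf9 and Stat2 among them. Irf7, an interferon-induced transcription factor, had 1.72, 2.82 and 1.77 CPM with CP, against 33.3, 29.9 and 18.1 with SP (log2 fold change of -3.69, edgeR adjusted p = 0.000353). Irf9 and Stat2, which act in the response to type I interferon, had log2 fold changes of -1.65 and -1.72 (edgeR adjusted p = 0.00214 and 0.0239). All 3 were lower in every CP library than in any SP library, as were 8 of the 23 tested ligands (Ccl2, Ccl7, Ccl8, Cxcl1, Cxcl3, Cxcl5, Cxcl10 and Cxcl14) and 6.31% of all genes. For CP over MyoD + F/R/C, Irf7, Irf9 and Stat2 had log2 fold changes of -1.76, -1.03 and -1.01 and were not called (edgeR adjusted p = 0.104, 0.104 and 0.282), but each was lower in every CP library. In that comparison Ccl2 at 0.03, Ccl8 at 0.34, Cxcl14 at 0.32, Ccl7 at -0.54, Cxcl1 at -0.78 and Cxcl10 at -0.20 overlapped between the conditions. Of the same 8 ligands, Cxcl5 at -1.35 and Cxcl3 at -2.01 were lower in every CP library. Cxcl3 had 27, 6 and 24 counts with CP, against 51, 155 and 51 in MyoD + F/R/C. Cxcl12 at -0.82 was also lower in every CP library, as were 9.08% of all genes, and no ligand was called by edgeR. The part of these factors in the levels of the ligands was not tested. Of 19 tested NF-kB feedback genes and targets, 7 rose and 3 fell in +MyoD against MEFs (22.8% and 18.0% of all genes) and 8 rose and 4 fell in MyoD + F/R/C against MEFs (26.6% and 21.6% of all genes), so that the counts of those that fell were near the share over all genes. Icam1, an adhesion molecule, was at 4.25 ± 0.34 and 4.74 ± 0.34 on the log2 scale (edgeR adjusted p = 1.52e-07 and 3.82e-08) and Tnfaip3, a feedback inhibitor, was at -1.85 ± 0.15 and -1.48 ± 0.15 (edgeR adjusted p = 2.32e-07 and 1.16e-06). Of 19 tested upstream cytokines and receptors, 11 rose and 2 fell in +MyoD against MEFs (22.8% and 18.0% of all genes), and 4 rose and 6 fell in MyoD + F/R/C against +MyoD (10.9% and 8.39% of all genes). Il1r1, the receptor of interleukin-1, rose in both, by 1.62 ± 0.35 and 1.49 ± 0.35 on the log2 scale (edgeR adjusted p = 0.00152 and 0.00657). Il6, an inflammatory cytokine, rose in +MyoD against MEFs, with 2.57 ± 0.41, and fell in MyoD + F/R/C against +MyoD, with -1.23 ± 0.38 (edgeR adjusted p = 9.43e-05 and 0.0315).

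The receptors of these ligands were mostly low. Of 19 chemokine receptor genes 12 were tested, and in +MyoD against MEFs 2 rose, Ccr10 and Cxcr6, against 22.8% of all genes. Cxcr6, the receptor of Cxcl16, had 0.08, 0.07 and 0.39 CPM in MyoD + F/R/C and 5.23, 1.28 and 4.15 in +MyoD, against 0.39, 0.17 and 0.56 in MEFs, while T and NK cell markers summed to 2.33 to 6.56, 4.71 to 11.8 and 0.82 to 1.56 CPM in the same conditions, their part not being tested. Cxcr6 thus rose in +MyoD (log2 fold change of 3.25 ± 1.06, edgeR adjusted p = 0.0211) and fell with F/R/C (-4.24 ± 1.12, edgeR adjusted p = 0.0130). Ccr10, the receptor of Ccl27a and Ccl28, had 21, 35 and 15 counts in MyoD + F/R/C and 7, 8 and 20 in +MyoD, against 2, 0 and 1 in MEFs. Cxcr4, the receptor of Cxcl12, had at most 20 counts in a library of these 3 conditions. Of the atypical receptors, which bind chemokines without G protein signaling, 4 of 5 were tested and all 4 were higher in MyoD + F/R/C than in MEFs, against 26.6% of all genes. Ackr3, which takes up Cxcl12, was the most abundant, with 43.6, 56.1 and 24.5 CPM in MyoD + F/R/C and 5.67, 22.7 and 18.0 in +MyoD, against 14.9, 11.5 and 15.2 in MEFs (log2 fold change of 1.42 ± 0.37 over +MyoD and 1.58 ± 0.37 over MEFs, edgeR adjusted p = 0.0115 and 0.00197). Ackr4, which takes up CCR7 and CCR9 ligands, and Ackr1, which binds inflammatory CC and CXC ligands, rose by 4.63 ± 0.75 and 5.73 ± 0.92 on the log2 scale over MEFs (edgeR adjusted p = 9.02e-05 and 8.14e-05). Ccrl2, an atypical receptor that binds chemerin, had 10, 6 and 14 counts in MyoD + F/R/C and none in MEFs. A receptor nearly absent from MEFs can pass the filter only through conditions in which it is present. The counts of receptors that rose over MEFs thus describe them and are not a test of these lists.

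Of 2 chemokine ligands with other symbols, both fell in +MyoD against MEFs (18.0% of all genes did). Only 1, Ppbp, fell in MyoD + F/R/C against MEFs (21.6% of all genes), and Pf4 was not called there. Ppbp, a platelet and neutrophil-attracting CXC ligand, had 2.07, 0.89 and 0.96 CPM in MyoD + F/R/C and 0.38, 1.31 and 1.10 in +MyoD, against 21.7, 9.57 and 15.2 in MEFs. Its log2 fold change was -4.05 ± 0.66 for +MyoD over MEFs and -3.57 ± 0.64 for MyoD + F/R/C over MEFs (edgeR adjusted p = 0.000120 and 0.000226). Pf4, the platelet ligand next to it in function, was also called lower in +MyoD than in MEFs, with -2.47 ± 0.82 (edgeR adjusted p = 0.0227). Of 8 genes that process or present chemokines, 5 rose in +MyoD against MEFs (22.8% of all genes) and 4 rose in MyoD + F/R/C against MEFs (26.6% of all genes). Mmp2, a protease that cleaves Ccl7 and Cxcl12, rose by 3.53 ± 0.23 and 3.33 ± 0.22 on the log2 scale (edgeR adjusted p = 2.10e-08 and 1.74e-08), and Dpp4, a peptidase that trims Ccl11 and Cxcl12, rose with F/R/C, by 2.37 ± 0.48 over +MyoD (edgeR adjusted p = 0.00217).

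The other 21 records were not tested. The highest count of any of them in a library was 79, of Ccl20, a ligand of CCR6, in line 3 of +MyoD, against 7 and 6 in lines 1 and 2. Line 3 of +MyoD was thus the highest +MyoD culture for Ccl20, Cxcl5, Cxcl1, Cxcl10, Ccl11 and Ccl8 alike. Ccl17, which attracts T cells through CCR4, had 3, 4 and 0 counts in +MyoD and none with F/R/C, against 5, 33 and 3 in MEFs. Ccl19 had at most 10 counts, Ccl22 at most 4 and Cxcl17 at most 5. Xcl1, Ccl1, Ccl26 and Ccl27b had none in any library, which allows up to 3 counts in each. The Ccl21 and Ccl19 genes occur as near-identical copies, also on unplaced scaffolds, which no read count can separate, and no copy of Ccl21 had more than 1 count. Cxcl11, a polymorphic pseudogene in this annotation and so no member, had at most 11 counts.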

How the data were processed

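Poly-A RNA of 15 cultures was sequenced single-end from stranded libraries. Per the submitters' processing notes, reads were handled with bcl2fastq 2.20 and fastp 0.20.0, and the authors quantified transcripts of GRCm38.p6 with kallisto 0.46.1, whose strand setting is not given in the sources used here. The deposited files hold estimated counts and TPM, a relative abundance scaled by the authors' software to length and depth.

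Of 121843 transcripts per file, 121104 matched GENCODE M21 (the methods name another release number) and were summed per gene. The 739 others, 0.236 to 0.327% of counts, were left out. Estimated counts were rounded, filtered with filterByExpr (minimum count 10, about 0.261 CPM in 3 libraries), scaled by TMM and fitted with edgeR 4.0.16 (quasi-likelihood, all 5 conditions, Benjamini-Hochberg over 19331 genes), without a block. Scripts were tested on simulated data. A fold change is called at an adjusted p of at most 0.05 and a log2 fold change over 0.5. Intervals of ratios cover counting error only.

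The 3 MEF lines, each from 1 embryo, were used in every condition, so the line pairs the libraries. Deviations of same-line libraries had a mean correlation of 0.0737 (30 pairs), against -0.0368 between lines, and for 15 of 15 libraries the nearest ones were of the same line. The alternatives were DESeq2 1.42.0, its size factors, no filter, length-scaled counts, a log2 limit of 1, the line as a block, fewer libraries, and each library left out in turn.

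The members and the companion lists were chosen with earlier results of these data known. Full values are given for members that were called in a comparison or averaged 1 CPM or more in a condition, and for up to 4 called genes per companion list.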

Additional observations from a re-analysis of the deposited data

How the results depend on the processing

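Followed through the alternatives were 54 pairs of a comparison and a ligand described in full. They were those with an unadjusted p under 0.05 in the main fit or called in any fit. No direction reversed among them. Pairs chosen in this way have a clear direction and the alternatives reuse the same libraries, so that a reversal was unlikely from the start. Of 709 values, 655 kept direction and call, 35 lost the call and 19 gained it. Counts of called ligands moved by over 1.5 times in these cases. With only the 6 libraries compared, edgeR called 3 ligands higher in MyoD + F/R/C than in +MyoD, against 6 with all libraries, 1 lower with CP than in MyoD + F/R/C and 2 lower with CP than with SP. With only the 9 F/R/C libraries, 1 was lower with CP than in MyoD + F/R/C. DESeq2 called 1 lower with CP than with SP. Without the filter 2 were lower in MyoD + F/R/C than in MEFs, Ccl17 being added. Fewer libraries change both the samples and the spread estimated. Leaving out 1 library gave 9 to 12 ligands higher and 1 to 2 lower in +MyoD than in MEFs, where Cxcl10 was added without +MyoD replicate 3. It gave 6 to 7 higher and 2 to 4 lower in MyoD + F/R/C than in +MyoD, and 12 to 14 higher and 1 to 1 lower in MyoD + F/R/C than in MEFs. For SP and CP over MyoD + F/R/C and CP over SP it gave 0 to 0 in both directions. With the MEF line as a replicate block the counts were 10 higher and 1 lower, 6 higher and 3 lower, and 13 higher and 1 lower in the first 3 comparisons. The block ended the calls of Ccl28 and Cxcl5 in +MyoD over MEFs and of Cxcl3 in MyoD + F/R/C over MEFs, and changed no other call. The calls of Ccl28, Cxcl2 and Cxcl3 rest on counts near the filter level, and the cause of their loss was not tested. The +MyoD libraries spread more between lines, with a biological coefficient of variation of 0.487 against 0.214 in MEFs.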
